A study of Drosophila melanogaster with 9 samples.

Results

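The sites described here are the chromatin regions bound by HA-tagged KDM5 in both paraquat-fed and both control-fed fly libraries, taken as quantities rather than as present or absent. The peak lists of 4 anti-HA libraries were merged wherever peaks shared at least 1 bp, and regions on the arms 2L, 2R, 3L, 3R and X with a peak in all 4 lists were kept. This gave 3337 regions of 7537 merged regions in all. Another 33 regions with a peak in all 4 lists lay off these arms. They entered the fits but are not described further, apart from 1 of them that was called in a fit without a control library.

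The paraquat group was 2 chromatin immunoprecipitation (ChIP-seq) libraries from whole female Drosophila melanogaster aged 1 to 3 days, fed 20 mM paraquat in 5% sucrose for 6 hours. The control group was 2 libraries from the same kind of flies fed 5% sucrose without paraquat for 6 hours. All flies of both groups carried k6801/k6801;gHA-KDM5, that is, they were homozygous for k6801 and held the tagged genomic rescue transgene of KDM5, so neither group is an untagged control. Lists of KDM5 and of H3K4me3 peaks from wildtype w1118 flies aged 1 to 3 days, 1 library each, were used only to describe the regions. No paraquat or sucrose feeding is listed for these wildtype flies. Libraries with the same number, paraquat 1 with control 1 and paraquat 2 with control 2, are called a pair. The labels give no meaning to the number and do not state that the libraries of a group came from different flies, so p-values measure only the spread between these libraries, which may be technical.

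KDM5 is a demethylase of the JmjC family that removes methyl groups from lysine 4 of histone H3 and is also able to read that mark through a PHD finger. It is known as a regulator found at the promoters of active genes, where H3K4me3 lies. Paraquat is a herbicide that cycles between redox states inside cells and produces superoxide, and it is fed to flies as a standard oxidative stress. Whole flies mix many tissues, so a change in how many cells hold KDM5 at a site and a change in occupancy per cell cannot be told apart. Gene models of the build used by the files (dm3) were not used here, so regions are given by position.

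The height of a region is its highest summit pileup, which is the number of ChIP fragments stacked at the summit as the authors' peak caller wrote it, not scaled for depth. The median height was 65 and 51 fragments in paraquat libraries 1 and 2, against 56 and 48 in control libraries 1 and 2. The groups overlapped, and the difference of 6 fragments between the group means (58.0 ± 9.9 in paraquat and 52.0 ± 5.66 in control, SD, n = 2 each) was less than the SD of the paraquat group. An exact two-sided permutation test over libraries gave p = 0.667, and with 2 libraries a group no p below 0.333 is possible. The median fold enrichment, the authors' pileup over local background, was 4.28 and 3.41 in paraquat libraries 1 and 2, against 3.47 and 3.49 in the control libraries. Paraquat library 1 alone stood high, and paraquat library 2 lay below both controls. Without paraquat library 1 the differences turned round, to -1 fragment in median height and -0.0648 in median fold. Read totals are not in the lists, so the depth behind these levels is unknown.

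Because levels moved with the library, regions were ranked within each library, from percentile 0 for the lowest to 100 for the highest of the 3337. A region's height shift is its percentile in a paraquat library minus that in the control library of the same number. In pileup height the direction of a region's shift in one pair said little of its direction in the other. Of 3337 regions, 815 (24.4%) had a higher percentile in paraquat in both pairs and 850 (25.5%) a lower one, 1665 or 49.9% in all with the same direction. Opposite directions were found at 1669 regions, or 50.0%, and 3 regions had no shift in one of the pairs. Across regions Spearman's rank correlation between the shifts of pair 1 and pair 2 was 0.01 (n = 3337 regions, which share their 4 libraries). Shifts past 10 percentile points in both pairs were found upwards at 212 regions (6.35%) and downwards at 234 (7.01%), 446 in all, and in opposite directions at 417. Past 20 points in both pairs they were found upwards at 53 regions (1.59%) and downwards at 47 (1.41%), and in opposite directions at 88. Ranked by fold enrichment in place of pileup, the pairs had the same direction somewhat more often, at 1785 regions (53.5%), against opposite directions at 1547. Past 10 points these counts were 621 (18.6%) and 453, past 20 points 204 (6.11%) and 118, and Spearman's rank correlation between the pairs' fold shifts was 0.10. Each condition had only 1 input library, so the background in the fold may be shared by the libraries of a condition. The fold shifts of the pairs may then not be independent, and the part of this in their agreement was not tested.

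**Figure D1:**
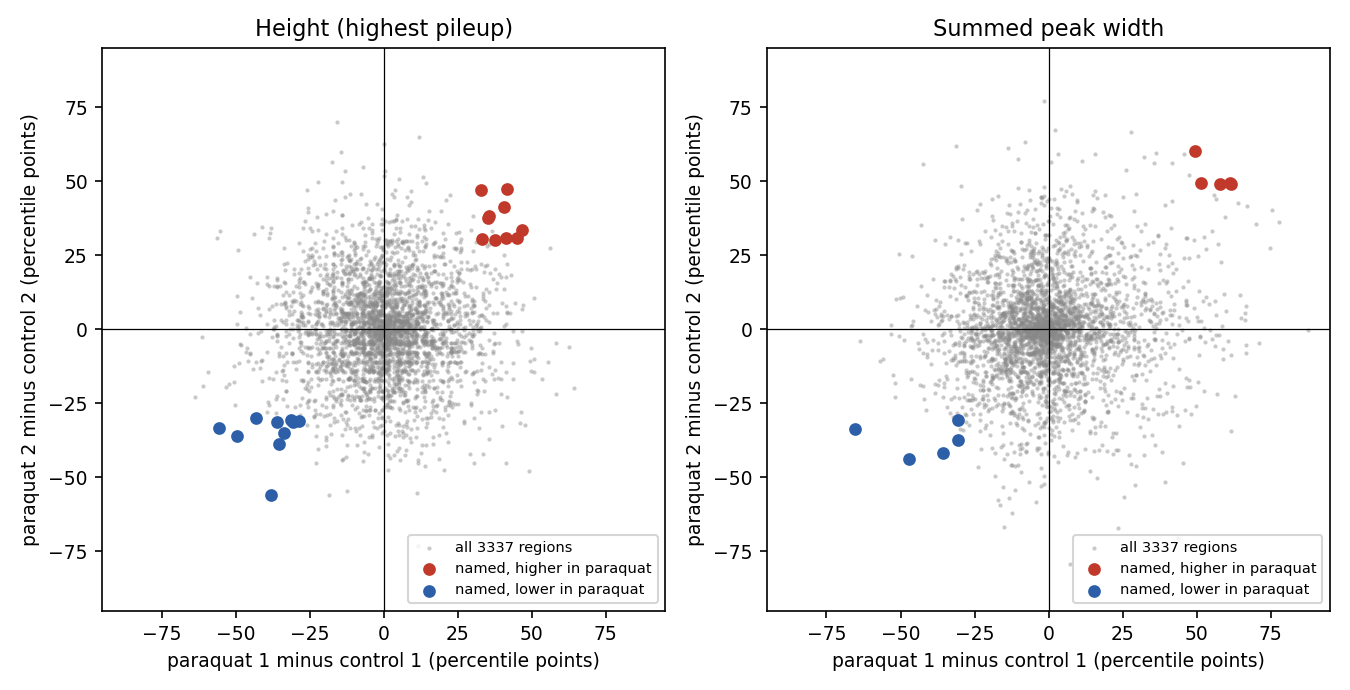
Shift of each of the 3337 regions in pair 1 (x axis) and pair 2 (y axis), in percentile points, for height (left) and summed peak width (right). The height cloud is round, with 1665 regions in the same-direction quadrants and 1669 in the others; coloured points are the named regions, which were chosen for lying far out in both pairs.

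Between libraries of the same number, paraquat and control differed less than libraries of one condition did. The median absolute difference in height percentile was 9.52 points in pair 1 and 9.19 in pair 2. It was 12.8 points between the paraquat libraries and 13.2 between the control libraries. These last differences are between libraries of different number, and same-numbered libraries deviated together (Pearson's r across regions 0.49 for height and 0.41 for width), so they hold the difference between numbers as well. Across both condition and number the median absolute difference was 11.9 points between paraquat 1 and control 2 and 14.8 between paraquat 2 and control 1, on either side of the values within a condition. Both paraquat percentiles lay above both control percentiles at 375 regions (11.2%) and below them at 439 (13.2%). After centring each library on its median, no region differed by more than 1 on the log2 scale within either pair. The widest differences were 0.70 and -0.70 in pair 1 and 0.85 and -0.79 in pair 2. The SD of the log2 height ratio over regions was 0.18 in pair 1 and 0.19 in pair 2, against 0.27 between the paraquat and 0.26 between the control libraries. Counting error at a single fixed base with these pileups would give an SD of 0.27 in pair 1 and 0.29 in pair 2. A region's height is a maximum over positions, for which that figure does not hold exactly, and it is given only as the size of error that pileups of this depth carry.

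A limma fit on centred log2(pileup + 1) over all 3370 regions with a peak in all 4 lists called none higher and none lower in paraquat at a Benjamini-Hochberg adjusted p under 0.05 (0% in each direction). The smallest adjusted p was 0.9995. At an unadjusted p under 0.05 the same fit had 16 regions higher (0.475%) and 13 lower (0.386%). This fit took no account of the library number, so differences between numbers entered its error. With the number as a block, limma had 116 higher and 94 lower at an unadjusted p under 0.05. It again called none (smallest adjusted p 0.066). No count test was run, since pileups are not read counts per region. Fits without 1 library at a time again called none, except without control library 1, where 1 region was called higher (limma, adjusted p = 0.031). This region, off the arms on Uextra (positions 1484272 to 1484777), had a pileup of 168 in paraquat 1 and 75 in paraquat 2, against 154 in control 1 and 45 in control 2. Its number 1 libraries stood far above its number 2 libraries, and without control library 1 the paraquat library that stands high has no partner of its number.

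Regions are named by the smaller of their pair shifts, among those where both paraquat percentiles lay beyond both control percentiles. They were chosen for their values, so these are descriptions. None of them passed the limma test, in which every named region had an adjusted p of at least 0.9995. That test ignored the library number. With the number as a block, the limma adjusted p of the regions named for height ran from 0.395 to 0.763. The 10 regions named on the higher side had pair shifts of at least 30.3 points in both pairs, and the 10 on the lower side of at least 28.4 points. A wildtype KDM5 peak was found at all 20, as at 3336 of the 3337 members, with folds of 6.83 to 9.996 on the higher side and 6.98 to 10.5 on the lower side. An H3K4me3 peak was found at 8 of the 10 higher and 9 of the 10 lower regions, beside 83.7% of all members.

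The region furthest on the higher side lay on 3L at 2589362 to 2590091 (dm3) and had pileups of 65 and 55 in paraquat 1 and 2, against 41 and 37 in control libraries 1 and 2. Its height percentiles were 50.3 and 60.1 in paraquat, against 8.56 and 12.8 in control. It was thus a middle-ranking site in both paraquat libraries and among the lowest in both controls, and the log2 difference was 0.46 ± 0.16 (SE). It held no H3K4me3 peak, and its wildtype KDM5 fold was 7.80. The second, on 2R at 13422311 to 13423408, had pileups of 75 and 54 in paraquat, against 50 and 38 in control. Its log2 difference was 0.39 ± 0.16 (SE). It was also wider in paraquat, with 2.85 times the control width in pair 1 and 1.72 times in pair 2. The third, on 2R at 1589480 to 1590110, had pileups of 67 and 54 in paraquat, against 46 and 39 in control. It too was a site without H3K4me3, and its width did not follow its height, with 1.36 times the control width in pair 1 and 0.90 times in pair 2.

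The other higher regions had like sizes of difference. On 3L, the region at 8174027 to 8174529 had pileups of 72 and 51 in paraquat, against 46 and 38 in control. On 3L at 17044306 to 17045073 they were 66 and 61 in paraquat, against 46 and 41 in control. These 2 regions each held 1 H3K4me3 peak, at folds of 2.39 and 2.58. On X at 5648540 to 5648932 the pileups were 64 and 50 in paraquat, against 40 and 38 in control. This X region lay under 2 H3K4me3 peaks, as did the one on 2R at 3386937 to 3388193. The others lay on 2R at 16506130 to 16506801 and 14012785 to 14013570 and on 2L at 9792672 to 9793015. Over the 10 the ratio of pileups ran from 1.43 to 1.65 in pair 1 and from 1.31 to 1.49 in pair 2.

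On the lower side the first region lay on 3R at 14048614 to 14049201, with pileups of 58 and 40 in paraquat 1 and 2, against 63 and 56 in control libraries 1 and 2. Its percentiles were 31.4 and 15.4 in paraquat, against 69.5 and 71.3 in control. In pair 1 the pileup itself differed little, and the region ranked lower because most regions had higher pileups in paraquat library 1. The log2 difference after centring was -0.44 ± 0.16 (SE). The second, on 3R at 24860236 to 24860791, had pileups of 49 and 41 in paraquat, against 59 and 50 in control. It was the only one of the 10 without an H3K4me3 peak. The third, on 3L at 2236573 to 2237280, had pileups of 52 and 42 in paraquat, against 56 and 52 in control, and lay under 2 H3K4me3 peaks. Wildtype KDM5 folds above 10 were found at 5 of the 10 lower regions and at none of the 10 higher ones, beside 678 (20.3%) of all members. They were on 3L at 2236573 to 2237280 (10.5), on 3R at 18886541 to 18887049 (10.4) and 6533505 to 6534061 (10.4), on 2R at 18262500 to 18263259 (10.3) and on X at 18787004 to 18787728 (10.3). The highest fold among the higher regions, 9.996, lay just under that line. The choice also put the lower regions at control percentiles of 32.9 to 86.0, against 2.503 to 42.7 for the higher. Over all members, median pileups in control libraries 1 and 2 were 62 and 53 in the highest quintile of wildtype KDM5 fold. They were 49 and 44 in the lowest. The part of the choice in this contrast was not tested.

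The remaining lower regions lay on 2L at 6479864 to 6480564 and 15060188 to 15060814 and on 3R at 7039500 to 7040269. On 2L at 6479864 the pileups were 52 and 47 in paraquat, against 64 and 56 in control. On 3R at 7039500 they were 46 and 33 in paraquat, against 53 and 43 in control, and the paraquat percentiles of 5.73 and 1.54 put the site at the foot of both paraquat rankings. Over the 10 lower regions the ratio of pileups ran from 0.812 to 0.983 in pair 1 and from 0.714 to 0.857 in pair 2.

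**Figure D2:**
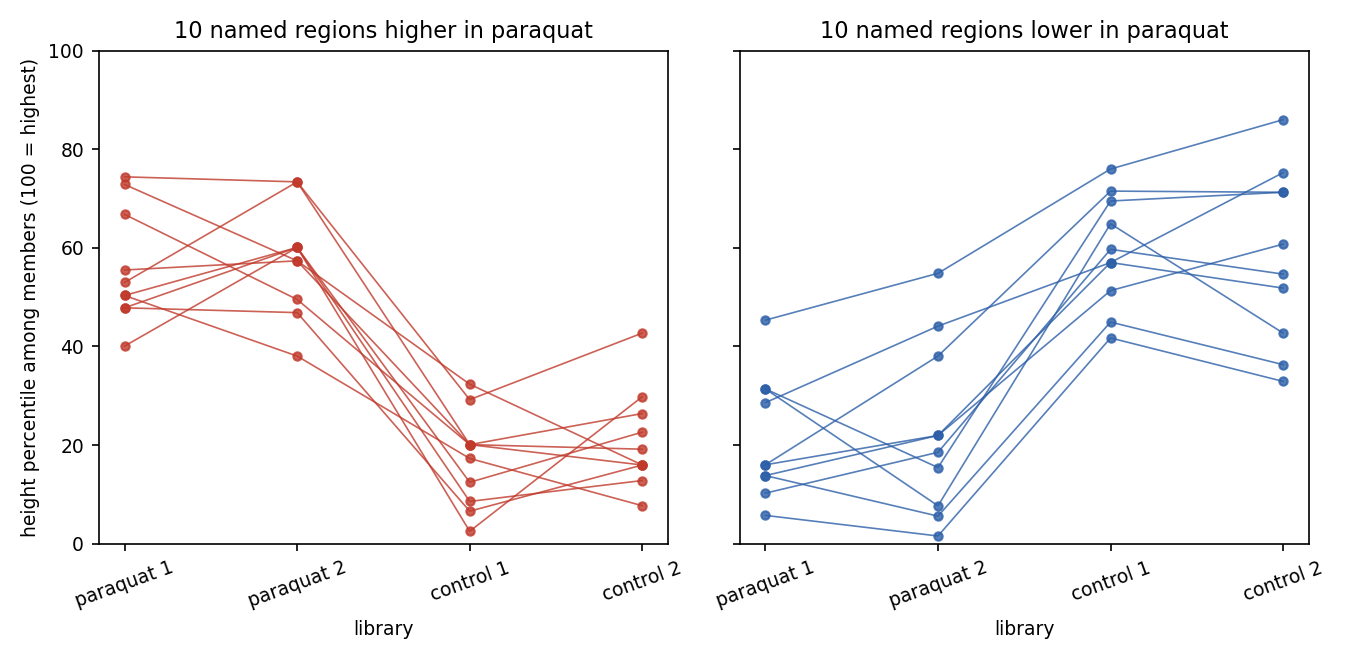
Height percentile (y axis, 100 = highest of the 3337 regions) of the 10 named higher regions (left) and 10 named lower regions (right) in each library (x axis); each line is 1 region. Higher regions lay at percentiles 38.1 to 74.4 in paraquat and 2.503 to 42.7 in control, and lower regions at 1.54 to 54.8 in paraquat and 32.9 to 86.0 in control, by construction of the choice.

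The strongest sites were taken by their average percentile over the 4 libraries, which places them near the top of each. Among the 10 highest the lowest percentile in any library was 99.0, and the median absolute shift was 0.13 points in pair 1 and 0.15 in pair 2. Among the 100 strongest it was 1.00 and 0.89 points, with 11 regions above both controls in both paraquat libraries and 14 below. Ranks at the top have little room to move, so the log2 height ratio is given as well. Relative to all members its median over the 100 strongest was -0.05 in pair 1 and 0.01 in pair 2. Over the 10 strongest it was -0.22 and -0.03, the first of which is past the SD of 0.18 over all regions in pair 1.

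Summed peak width differed mainly in one library. In pair 1 the median log2 ratio of paraquat over control was 0.38 for width, against 0.22 for height. In pair 2 it was 0.08 for both. The median width per region was 619 and 463 bp in paraquat libraries 1 and 2, against 467 and 434 bp in control libraries 1 and 2. The groups overlapped, since paraquat library 2 lay just below control library 1 (exact two-sided permutation p = 0.667). In pair 1 the median region was 1.31 times wider in paraquat and 2950 regions (88.4%) were wider. In pair 2 it was 1.05 times wider in paraquat and 1955 (58.6%) were wider. Between libraries of one condition the differences were as large, with a median ratio of 1.31 for paraquat 1 over paraquat 2 and 1.06 for control 1 over control 2. Paraquat library 1 also had the longest list, with 7403 peaks, against 4853 in paraquat library 2, 5886 in control library 1 and 4919 in control library 2. The part of depth in these widths was not tested.

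**Figure D3:**
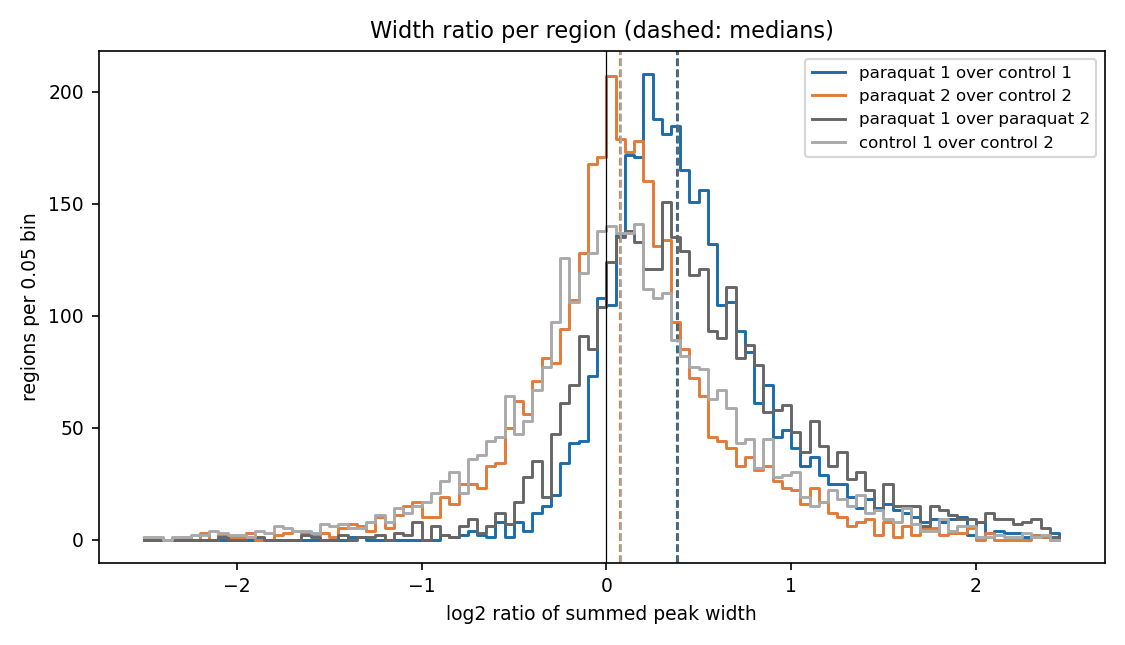
Distribution over the 3337 regions of the log2 ratio of summed peak width (x axis; counts of regions per bin on the y axis) for the pairs and for libraries of one condition, with medians as dashed lines; ratios beyond 2.5 in size are not shown. The medians are 0.38 for pair 1, 0.08 for pair 2, 0.39 between the paraquat libraries and 0.08 between the control libraries.

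In base pairs 1740 regions (52.1%) were wider in paraquat in both pairs and 170 (5.09%) narrower in both. Both paraquat widths lay above both control widths at 1015 regions (30.4%) and below at 47 (1.41%). The gain was at least 1.5 times in both pairs at 188 regions, and the loss at 2. Ranking widths within each library takes out any widening that a whole library shares. On these ranks 785 regions (23.5%) were higher in both pairs and 983 (29.5%) lower, 1768 in all, and 1556 had opposite directions. Past 10 points in both pairs 210 (6.29%) were higher and 263 (7.88%) lower, 473 in all, against 352 in opposite directions. Past 20 points there were 84 (2.52%) higher and 59 (1.77%) lower, 143 in all, against 86 in opposite directions. Spearman's rank correlation between the width shifts of pair 1 and pair 2 was 0.08 (n = 3337 regions). Both paraquat width percentiles lay above both controls at 398 (11.9%) and below at 502 (15.0%). The limma fit on centred log2 width called no region wider and none narrower (0% each; smallest adjusted p 0.9999). At an unadjusted p under 0.05 it had 71 wider (2.11%) and 12 narrower (0.356%). Without centring it again called none, with 112 wider and 2 narrower at an unadjusted p under 0.05. With the library number as a block limma also called none, with 133 wider and 43 narrower at an unadjusted p under 0.05.

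As a ratio, widening in pair 1 was largest at the weakest sites. In the lowest quintile of regions by mean height the median width was 433.5 and 242 bp in paraquat, against 276 and 225 bp in control. In the highest quintile it was 829.5 and 687.5 bp in paraquat, against 655 and 666.5 bp in control. In bp, the pair 1 medians thus differed no less in the highest quintile than in the lowest, where peaks were shorter. From the lowest to the highest quintile the median log2 width ratio in pair 1 was 0.57, 0.42, 0.36, 0.35 and 0.31. In pair 2 it was 0.11, 0.05, 0.10, 0.10 and 0.05, with no such order. Height and width shifts were nearly unrelated across regions, with Spearman's rank correlation of 0.06 in pair 1 and 0.14 in pair 2 (n = 3337 regions).

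The edges that moved were examined at 1466 regions with 1 peak in each list and exactly 1 H3K4me3 peak, where the H3K4me3 summit gives a direction. In pair 1 the paraquat peak reached a median of 45 bp further on the H3K4me3 side and 39 bp further on the other side, and 935 regions (63.8%) extended on both sides. In pair 2 the medians were 4 bp on the H3K4me3 side and 17 bp on the other, and 448 regions (30.6%) extended on both. Between paraquat libraries 1 and 2 the gain was 71 bp on the H3K4me3 side and 4 bp on the other. Between control libraries 1 and 2 it was 13.5 bp and -11 bp. A lean toward the H3K4me3 side was thus measured between the library numbers in both conditions, and neither pair had a lean of that size.

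The regions named for width were chosen for it as well, and none passed the limma test (adjusted p of at least 0.9999). With the library number as a block their limma adjusted p ran from 0.748 to 0.861. The first of the 5 wider regions lay on 2R at 9370143 to 9370881, with widths of 654 and 585 bp in paraquat 1 and 2, against 169 and 159 bp in control libraries 1 and 2. The width was 3.87 times the control value in pair 1 and 3.68 times in pair 2, while its height differed by 0.06 ± 0.18 on the log2 scale (SE). It held no H3K4me3 peak. The second, on X at 10638577 to 10640103, measured 1254 and 850 bp in paraquat, where it was called as 2 and 3 peaks, against 422 and 371 bp in control, where it was a single peak. The third, on 2R at 7339383 to 7340225, measured 688 and 773 bp in paraquat, against 100 and 350 bp in control. The control libraries stood far apart there, with control library 1 at the shortest width that a peak in these lists has. The others lay on 2L at 13367551 to 13368588 and on 3L at 7348950 to 7349830.

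The first of the 5 narrower regions lay on 3R at 1082727 to 1083491, with widths of 412 and 216 bp in paraquat, against 540 and 469 bp in control. Its height was also lower, by a log2 difference of -0.38 ± 0.17 (SE). The second, on 3L at 16341245 to 16341745, measured 429 and 250 bp in paraquat, against 490 and 481 bp in control. In both, paraquat library 2 was the narrowest. The third, on X at 20382591 to 20383249, measured 367 and 163 bp in paraquat, against 644 and 385 bp in control, and was the only one of the 5 without H3K4me3. The last ones lay at 2498152 to 2498805 of X and on 3L at 15825566 to 15826073, where the paraquat width was 0.95 and 0.92 times that of control in pair 1 and 0.38 and 0.29 times in pair 2.

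The number of peaks into which a region was divided was lower in both paraquat libraries. More than 1 peak was called at 469 (14.1%) and 528 (15.8%) of the 3337 regions in paraquat libraries 1 and 2, against 769 (23.0%) and 654 (19.6%) in control libraries 1 and 2. The groups did not overlap, and the means were 14.9% ± 1.25 in paraquat and 21.3% ± 2.44 in control (SD, n = 2 each). The exact two-sided permutation p was 0.333, the smallest that 2 libraries against 2 allow. By region, 129 (3.87%) held fewer peaks in paraquat in both pairs and 32 (0.959%) held more, while 2087 (62.5%) had the same number in both. At 1948 regions each library had exactly 1 peak. Median widths were higher in paraquat in both pairs as well, and the part of that in the number of peaks was not tested. Each condition had only 1 input library, and the part of a background shared within a condition was not tested either.

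Summits stayed near where they were. The distance between the summits of a region's highest peak had a median of 33 bp from paraquat 1 to control 1 and 41 bp from paraquat 2 to control 2. It was 47 bp between the paraquat libraries and 50 bp between the control libraries. Past 100 bp lay 843 regions (25.3%) in pair 1 and 994 (29.8%) in pair 2, against 1194 (35.8%) between the paraquat and 1176 (35.2%) between the control libraries. Same-numbered libraries thus had nearer summits than libraries of one condition. Across both condition and number the median was 41 bp between paraquat 1 and control 2, with 32.5% of regions past 100 bp, and 53 bp between paraquat 2 and control 1, with 37.0%. At the 1948 regions with 1 peak in each list the medians were 33 and 38 bp in the pairs, against 42 bp between the paraquat and 45 bp between the control libraries.

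**Figure D4:**
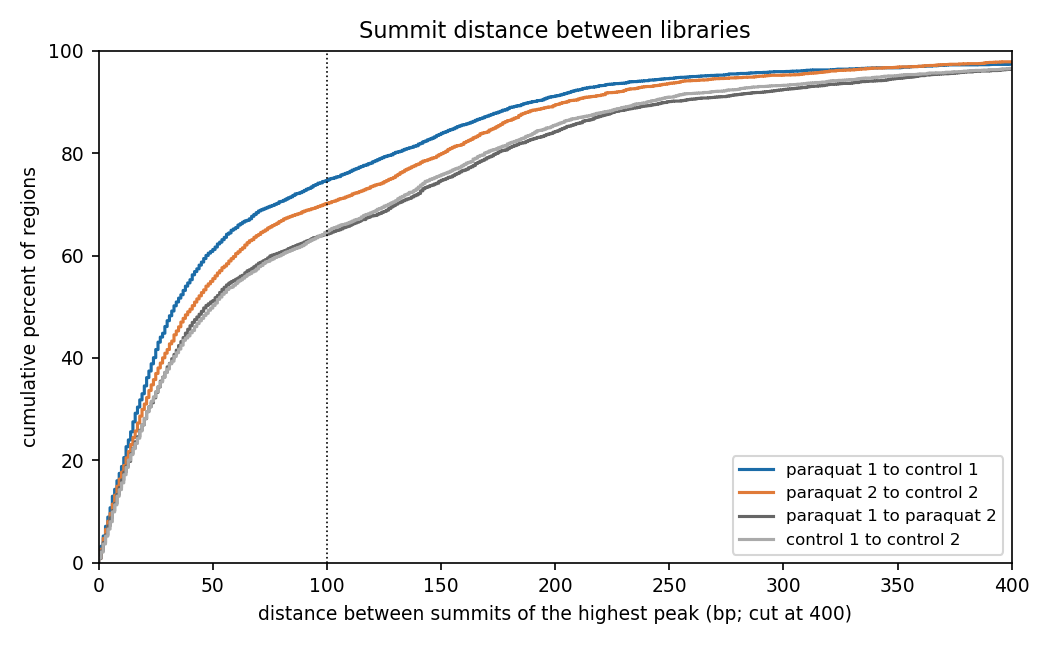
Cumulative percent of the 3337 regions (y axis) with summits of the highest peak within a given distance in bp (x axis) for both pairs and for libraries of one condition; the dotted line marks 100 bp. Past that line lie 25.3% and 29.8% of regions in pairs 1 and 2, against 35.8% between the paraquat and 35.2% between the control libraries.

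At 317 regions the summits lay over 100 bp apart in both pairs. At 140 of these (4.2%) both paraquat summits also lay on the same side of both control summits, with a median gap of 135 bp. These 140 regions had a median length of 716 bp, against 689 bp for all members, and 85.7% held H3K4me3, against 83.7% for all members. Of the 120 with an H3K4me3 peak, the paraquat summits were nearer to its summit at 58 and the control summits at 62. Where a region held several H3K4me3 peaks, the summit of the one with the highest fold was taken. This was so at 20.7% of the 140 regions, beside 15.9% of all members. Over all members with H3K4me3 the median distance from the KDM5 summit to the H3K4me3 summit was 83 and 105.5 bp in paraquat libraries 1 and 2, against 82 and 94 bp in control libraries 1 and 2. The number 2 libraries lay further from it in both conditions.

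The 5 moves with the widest gap lay in long regions with 2 or more H3K4me3 peaks. Each region was called as more than 1 peak in some library, but in all except the fifth some library called only 1 peak. Whether the highest of several summits changed place was not tested. The widest, on X at 1801144 to 1803760, had its highest summit at 1803067 and 1803011 in paraquat libraries 1 and 2, against 1801680 and 1802139 in control libraries 1 and 2. Its control summits were themselves far apart, and the strongest H3K4me3 summit, at 1802464, lay between the paraquat and the control summits. The second, on 3R at 11234053 to 11235213, had it at 11234234 and 11234208 in paraquat, against 11234902 and 11234906 in control, close to the strongest H3K4me3 summit at 11234939. Here both libraries of a condition marked nearly the same base, and the heights were 54 and 46 fragments in paraquat, against 46 and 48 in control. The third, on 2R at 19731358 to 19733176, had it at 19731979 and 19732017 in paraquat, against 19732659 and 19732676 in control. In that region the paraquat summits were the ones nearer to the strongest H3K4me3 summit, at 19732043. The fourth, on X at 18676947 to 18678484, had it at 18677263 and 18677412 in paraquat, against 18678036 and 18678021 in control. The strongest H3K4me3 summit there, at 18677401, was also nearer to the paraquat summits. The fifth, on 3R at 20742934 to 20744462, had it at 20744044 and 20744045 in paraquat, against 20743460 and 20743457 in control. Its strongest H3K4me3 summit, at 20744075, was nearer to the paraquat summits too.

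Median height shifts were under 1 point on each chromosome arm. The median height shift lay between -0.25 points on X and 0.46 on 2R in pair 1, and between -0.66 on 3L and 0.13 on X in pair 2. Shares with both paraquat percentiles above both controls ran from 10.7% on 3R to 11.8% on 2R, and shares below from 11.5% on 2R to 14.6% on 3L. X held 602 regions, 18.0% of the members. It held 18.4% of the regions above and 18.9% of those below. Of regions past 10 points in both pairs it held 17.9% of the 212 higher and 22.6% of the 234 lower in height, and 23.3% of the 210 higher and 17.5% of the 263 lower in width. Shifts of neighbouring regions were nearly unrelated. Across 1529 pairs of neighbours within 5 kb Spearman's rank correlation of their height shifts was 0.04 in pair 1 and 0.01 in pair 2, and across 600 pairs over 50 kb apart it was 0.00 in both.

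Wildtype KDM5 fold, which no ranking used, went with the height shift in the same direction in both pairs, to a small extent. In the lowest quintile of members by that fold (2.03 to 7.54) the median shift was 1.24 points in pair 1 and 1.12 in pair 2. In the highest quintile (10.02 to 11.3) it was -1.30 and -1.39. The share with both paraquat percentiles above both controls was 11.7% in the lowest and 8.55% in the highest quintile, and the share below was 10.03% and 15.7%. Across regions Spearman's rank correlation of fold and shift was -0.08 in pair 1 and -0.07 in pair 2 (n = 3336 regions). With regions ranked by fold enrichment in place of pileup it was -0.03 and -0.04, and the lowest-quintile medians were 0.25 and 0.91 points. The highest-quintile medians were then -1.12 and -1.35 points. The same fold went more strongly with the library number. The rank correlation was 0.17 for paraquat 1 minus paraquat 2 and 0.18 for control 1 minus control 2, and the medians in the lowest quintile were -6.53 and -5.47 points, against 3.16 and 4.62 in the highest.

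**Figure D5:**
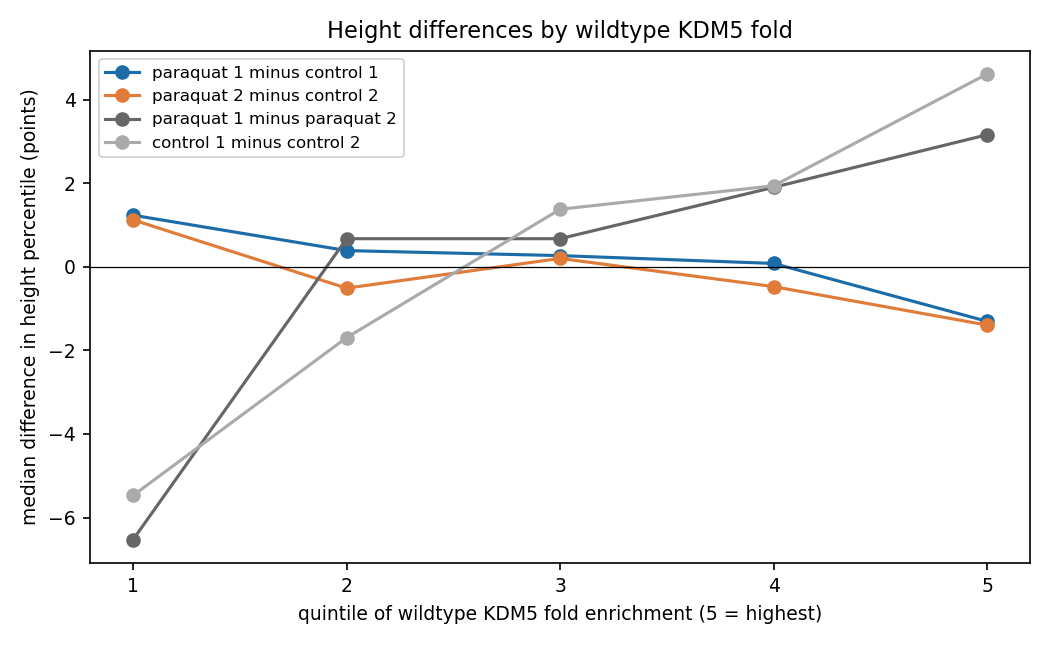
Median difference in height percentile (y axis, points) over quintiles of the members by wildtype KDM5 fold (x axis, 5 = highest) for both pairs and for libraries of one condition. The pairs run from 1.24 and 1.12 down to -1.30 and -1.39, and the differences between numbers run the other way from -6.53 and -5.47 up to 3.16 and 4.62.

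H3K4me3 was found at 2794 members (83.7%). Regions without it had a median shift of -0.09 and -0.51 points in pairs 1 and 2, and regions with 1 such peak -0.03 and -0.42. The 72 regions with 3 or more H3K4me3 peaks had medians of 0.54 and 0.70 points. Their medians between library numbers were larger in size, -1.19 points for paraquat 1 minus paraquat 2 and -1.42 for control 1 minus control 2. At all other members these were 0.66 and 0.54 points. Among these 72, both paraquat percentiles lay above both controls at 15 (20.8%) and below at 7 (9.72%), beside 11.2% and 13.2% of all members. They were long regions, with median summed widths of 1521 and 1244 bp in paraquat, against 1175.5 and 1162.5 bp in control. Regions above and below both controls otherwise had like shares with H3K4me3, 83.5% and 84.1%. Their median lengths were 732 and 645 bp, beside 689 bp for all members.

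The rule keeps only regions called in every library, so sites that lost or gained a peak are outside it. On the arms 690 regions had a peak in exactly 3 lists. The missing list was paraquat 1 at 6, paraquat 2 at 250, control 1 at 217 and control 2 at 217 of them. Where paraquat 2 was missing, the median pileup was 48 in paraquat library 1, against 42 in control library 1 and 35 in control library 2. Where control 1 was missing it was 45 and 42 in paraquat libraries 1 and 2, against 40 in control library 2. Where control 2 was missing it was 47 and 36 in paraquat libraries 1 and 2, against 43 in control library 1. These values lie below the member medians. Just inside the rule, 40 members (1.20%) had a library whose best −log10 q was under 2.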

How the data were processed

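ChIP-seq peak lists of 4 anti-HA libraries were used, with wildtype KDM5 and H3K4me3 lists for classes. The 3 inputs were not used. CASAVA 1.4, Bowtie and MACS2 and the build dm3 are named in the submitters' processing notes; the settings, and the versions of Bowtie and MACS2, are not stated in the sources used here. The files carry no header; since width is end minus start in every row, starts were read as 0-based and positions are printed 1-based. Each deposited row gives a signal value (summit pileup, whole numbers in the anti-HA lists), −log10 of the p-value and of the q-value, and a fold ratio over background, all made by the authors per library, with no replicates pooled. Fragments of 150 to 350 bp were selected on a gel (labels' protocols). Depth is unknown.

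Members and named-region rules were chosen with earlier results of these data known. Heights, widths and summits were taken per region, ranked, and compared in Python 3.11.15 (pandas 2.3.3, scipy 1.17.1). limma 3.58.1 in R 4.3.3 was fitted to log2(pileup + 1) and log2 width over all 3370 shared regions, median-centred, paraquat against control, with Benjamini-Hochberg adjustment. The code was tried on simulated heights. These held no library-number effect, and their planted changes were larger than any centred height difference within a pair. They therefore do not show how the fit performs on these libraries. Named were the 10 height and 5 width regions per direction with the largest smaller pair shift, and the 5 widest summit gaps. Planned gene lists were not used, for want of dm3 gene models. Alternatives changed scaling, measure, thresholds, peak filter and libraries.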

Additional observations from a re-analysis of the deposited data

How the results depend on the processing

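No height region was called by limma with quantile normalization, no centring, the upper 50% of regions, fold or −log10 p in place of pileup, or a replicate block. The library number paired deviations (Pearson's r across regions 0.49 for height and 0.41 for width, from 2 pairs), but the labels do not say what it marks. With the replicate block 210 regions had an unadjusted p under 0.05 for height (smallest limma adjusted p 0.066) and 176 for width, and the count of calls stayed at 0. Leaving out 1 library gave 0 to 1 height calls and 0 width calls, and no other alternative called a width. Agreeing height shifts past 10 points numbered 446; they were 253 at regions with 1 peak in each list, 100 past 20 points, and 1611 in either pair alone. With fold they were 621 and with −log10 p 519. For width 473 became 311 at regions with 1 peak in each list, 143 past 20 points, and 1503 to 1630 in 1 pair alone. Summit moves, 140, became 259 past 50 bp, 33 past 200 bp, 73 at regions with 1 peak in each list, and 843 to 994 in 1 pair alone. Regions with more or fewer peaks, 161, became 702 to 830 in 1 pair alone. The single-pair values for summits and peak numbers, and the values of library medians and named regions below, were added after seeing the data. The counts at fewer regions, past other distances or points, or in a single pair differ by construction; for the counts with fold and −log10 p the cause was not tested. Without 1 library at a time the median height difference of 6 fragments ran from -1 to 13, and the median fold difference of 0.37 from -0.0648 to 0.80, the low ends without paraquat library 1. The width difference of 90.5 bp ran from 12.5 bp without paraquat library 1 to 168.5 bp without paraquat library 2. The difference of the share with more than 1 peak, -6.38 percentage points, ran from -8.11 to -4.66. The fall of the height shift from the lowest to the highest quintile of wildtype KDM5 fold was -2.88 points, and -3.88 to -1.96 under alternatives chosen after seeing the data. The 35 named regions had the same direction in all 283 alternative values, which their choice by shifts in both pairs largely fixes. Pileups of 28 to 155 fragments limit what can be seen at 1 region.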
